A study of Homo sapiens with 10 samples.

Results

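The unfolded protein response and the integrated stress response were followed here through 36 genes whose RNA rises when proteins misfold in the endoplasmic reticulum (ER) or when translation is slowed. The 36 were listed by symbol, with no threshold on a measured value, and fall into 20 genes of ER chaperones and ER-associated degradation and 16 genes made up of ATF4 and its targets. Each gene was read from its brightest probe set among those annotated to that gene alone. A value was obtained for 35 of the 36, out of 19775 genes measured in this way, and all 35 passed a filter on dim genes that kept 12979 genes. The 36th, SYVN1, encodes the ubiquitin ligase of ER-associated degradation, and its probe set is also annotated to a microRNA gene, so it was not analysed here.

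The data are 10 Affymetrix arrays, 1 for each combination of 2 human non-small cell lung cancer lines and 5 treatments. A549 is an adenocarcinoma line. HTB-182, called H520 in the title of the series, is a squamous line. Cells of both lines were kept for 4 h in 10% charcoal-stripped serum before 3 h of 1 µM estradiol, 1 µM estradiol plus 10 µM tamoxifen, 1 µM of the albumin conjugate of estradiol (estradiol-BSA, with bovine serum albumin), 1 µM estradiol-BSA plus 10 µM tamoxifen, or 0.1% ethanol as vehicle. The study set the albumin conjugate, meant for receptors at the plasma membrane, against free estradiol, which also reaches receptors inside the cell, and used tamoxifen as an inhibitor. All arrays share the stripped serum, and no group received albumin alone or tamoxifen alone. Where estradiol and tamoxifen were given together the array title mentions tamoxifen only, and the source names of the A549 arrays carry part of the name of the other line. The source name was followed for the treatment and the cell line entry for the line. No separate cultures are stated, so p-values reflect only how far these arrays scatter, and that scatter may be technical. Each array reads the RNA of a whole culture, in which fewer cells expressing a gene and less RNA per cell cannot be told apart.

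In the unfolded protein response, the ER membrane proteins IRE1, PERK and ATF6 sense unfolded proteins. IRE1 splices XBP1 mRNA, ATF6 is cut to release a transcription factor, and both routes raise chaperones and degradation genes. PERK phosphorylates the translation initiation factor eIF2, which lowers general translation and favours translation of ATF4. Other kinases phosphorylate eIF2 during amino acid shortage, viral infection or haem deficiency, and the shared downstream program of ATF4 is called the integrated stress response. ATF4 is controlled largely at translation, so its mRNA level need not follow its activity. Tumour cells commonly draw on both programs.

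The regulatory sites by which these genes are usually recognised were read from RefSeq promoters of the build GRCh38.p14, which cover 250 bases before to 50 bases after each start. Of the 36 genes, 34 had a promoter there, all but PDIA3 and NUPR1. The ER stress response element, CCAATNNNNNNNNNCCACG, was found on either strand in 0.0769% of 35116 promoters and in 7 of the 19 ER genes with a promoter, namely HSPA5, HSP90B1, CALR, CANX, PDIA6, CRELD2 and XBP1. Its second form, ATTGGNCCACG, was found in 0.0541% of promoters and in 3 of those 19 genes, HYOU1, HERPUD1 and SDF2L1. The composite site bound by ATF4 with C/EBP proteins, TGATGNAA, was found in 3.62% of promoters, in 3 of 15 ATF4 genes (ATF3, ASNS and CHAC1) and in HERPUD1. The element TGACGTGG was found in 0.729% of promoters and, among the 34 genes, in HYOU1 alone. There it overlaps a site of the second form that begins at base -185 from the start. The HYOU1 site printed below is another one, which begins at base -79. These shares are of promoters, whereas the stress genes were counted by gene, with any promoter of a gene sufficing. Counted by gene, the elements were found in 0.0916%, 0.0696%, 4.46% and 0.927% of 27305 genes, in the order given. Sites are shown for genes whose results below lie on different sides, and capitals mark the matched letters. The windows are HSPA5 (chr9:125241371-125241429, minus strand), XBP1 (chr22:28800583-28800641, minus strand), HSP90B1 (chr12:103930196-103930254, plus strand), CALR (chr19:12938364-12938422, plus strand), HYOU1 (chr11:119057254-119057304, minus strand), HERPUD1 (chr16:56932005-56932055, plus strand), SDF2L1 (chr22:21642094-21642144, plus strand), ATF3 (chr1:212565196-212565243, plus strand), ASNS (chr7:97872449-97872496, minus strand) and CHAC1 (chr15:40953242-40953289, plus strand), each written along its gene's own strand.
HSPA5: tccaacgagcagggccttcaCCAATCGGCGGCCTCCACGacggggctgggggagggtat
XBP1: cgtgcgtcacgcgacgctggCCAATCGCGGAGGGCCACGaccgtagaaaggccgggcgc
HSP90B1: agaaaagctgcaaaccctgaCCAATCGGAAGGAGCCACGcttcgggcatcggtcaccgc
CALR: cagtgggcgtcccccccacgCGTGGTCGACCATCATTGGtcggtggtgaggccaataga
HYOU1: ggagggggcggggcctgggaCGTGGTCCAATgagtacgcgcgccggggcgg
HERPUD1: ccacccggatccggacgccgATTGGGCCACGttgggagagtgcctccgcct
SDF2L1: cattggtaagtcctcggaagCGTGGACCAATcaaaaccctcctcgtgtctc
ATF3: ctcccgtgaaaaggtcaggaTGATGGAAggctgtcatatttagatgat
ASNS: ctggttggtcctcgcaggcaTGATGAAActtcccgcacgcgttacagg
CHAC1: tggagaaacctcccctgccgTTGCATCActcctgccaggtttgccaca
A match describes these letters only, and a missing match says nothing about the factor.

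Facts of the whole series that bear on these genes are few. The median intensity of an array was 17.5 to 21.5. Over all genes tested, arrays of A549 correlated at 0.969 or above with each other, arrays of HTB-182 at 0.996 or above, and arrays of different lines at 0.775 to 0.789. The A549 vehicle array stood apart. Compared with the average of the treated A549 arrays, 263 genes on it differed 2-fold or more, 249 of them lower, against 23 to 35 genes for each treated A549 array set against the remaining A549 arrays and at most 3 on any HTB-182 array. Every A549 value relative to vehicle rests on that array. Line markers gave a mixed picture. SOX2, a squamous lineage factor, averaged 135 ± 59.6 in A549 and 4150 ± 229 in HTB-182 (SD, n = 5 each), while the squamous keratin KRT5 averaged 26.1 ± 3.93 in A549 and 22.1 ± 4.21 in HTB-182. The summed intensity of the 8 measured squamous markers was 210 to 354 in A549 and 4040 to 4560 in HTB-182, nearly all of it SOX2 in HTB-182. The other 7 each averaged 65.1 or less in both lines, with KRT14, DSG3 and PKP1 below the filter in both. KRT7 averaged 3410 ± 581 in A549 and 18.1 ± 4.37 in HTB-182, whereas NKX2-1, the lung adenocarcinoma factor, lay below the filter in both lines. The sum of the 8 measured adenocarcinoma markers was 12400 to 14600 in A549 and 3900 to 4420 in HTB-182, carried by KRT7 and by KRT18 (9140 ± 576 in A549 and 2950 ± 151 in HTB-182). FOXA2 (508 ± 30.2 in A549 and 974 ± 66.3 in HTB-182), ABCA3, SFTPB and SFTPC had the lower average in A549. The sum of 11 blood, endothelial and fibroblast markers was 512 to 718 in A549 and 211 to 253 in HTB-182. COL1A1 made up most of that gap, at 382 ± 78.4 in A549 and 20.6 ± 1.4 in HTB-182, and the leukocyte gene PTPRC was below the filter in both. The part of other cells in the results was not tested.

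The first comparison set A549 against HTB-182 over the 5 matched treatments. Intensities were compared as log2(intensity + 16), which understates differences of dim genes, in a limma model with cell line and treatment as terms. A gene was called at a Benjamini-Hochberg adjusted p under 0.05 over all genes tested. Across the 12979 genes 33.6% were called higher and 32% lower in A549. Of the 35 stress genes 27 were called (77.1%), 20 higher and 7 lower in A549. The 5 arrays of the lines did not overlap for 23 of the 35 (65.7%), 16 with A549 above and 7 with A549 below, beside 58.5% of all genes. The lines differ in most genes, so a call by itself says little about the stress genes. Their median difference was a log2 value of 0.26 for ER chaperones and degradation and 0.41 for ATF4 and its targets, beside 0.03 for all genes. In what follows, the 5 values of a line are ordered as estradiol, estradiol plus tamoxifen, estradiol-BSA, estradiol-BSA plus tamoxifen, vehicle.

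**Figure D1:**
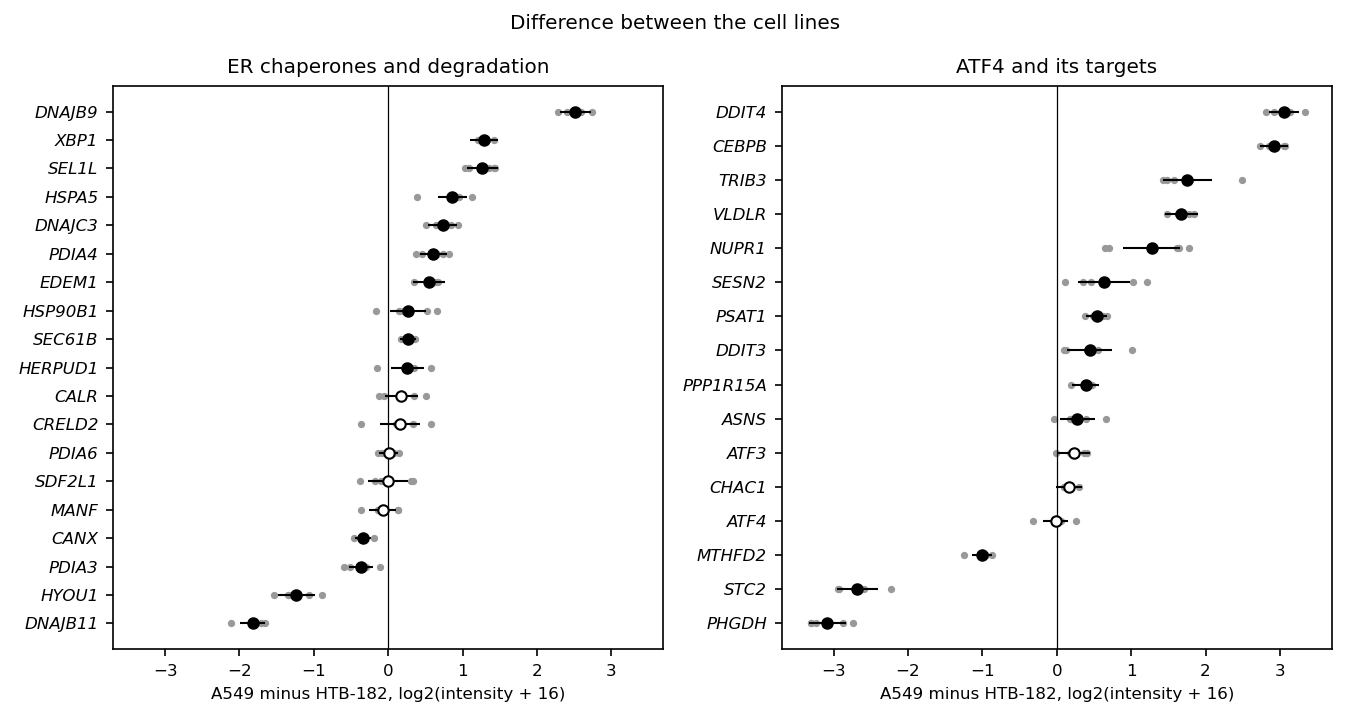
Difference between the lines for the 35 measured genes, as log2(intensity + 16) of A549 minus HTB-182 on the horizontal axis. Black points are the fitted difference with its 95% interval, filled where called and open where not, and grey points are the 5 matched treatments. DDIT4, CEBPB and DNAJB9 lie farthest to the right and PHGDH, STC2 and DNAJB11 farthest to the left.

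Among the ER genes 10 were called higher, 4 lower and 5 were not called in A549. HSPA5 encodes BiP, the central chaperone of the ER, which also holds the stress sensors inactive. It read 6297, 5752, 5592, 5897 and 4162 on the A549 arrays and 2887, 3050, 2897, 3057 and 3176 on the HTB-182 arrays. All A549 values lay above all HTB-182 values, the A549 vehicle array nearest to them. HSPA5 was 1.82-fold higher in A549 (log2 difference 0.86, SE 0.0869, adjusted p = 4.68e-06 by limma). The partners of BiP differed in direction. DNAJB9, a cochaperone that returns BiP to IRE1, read 1212, 1422, 895, 1070 and 1018 in A549 and 167.5, 223, 157, 207 and 158.5 in HTB-182, with no overlap. It was 5.72-fold higher in A549 (log2 difference 2.52, SE 0.0929, adjusted p = 9.94e-10). DNAJB11, a cochaperone that delivers unfolded chains to BiP, read 930.3, 801, 659, 809.5 and 802 in A549 and 2973, 2851, 2903, 2687 and 2857 in HTB-182. Every A549 array was below every HTB-182 array, and the gene was 3.53-fold lower in A549 (log2 difference -1.82, SE 0.0753, adjusted p = 2.52e-09). HYOU1, the nucleotide exchange factor of BiP, read 211, 185, 130.4, 166 and 167 in A549 and 404, 406, 410.5, 445 and 446.5 in HTB-182. It too was lower on every A549 array, by 2.36-fold (log2 difference -1.24, SE 0.112, adjusted p = 1.92e-06). DNAJC3, a cochaperone that also restrains PERK, ranged over 632 to 732 in A549 and 351 to 440 in HTB-182 and was higher in A549 (log2 difference 0.73, SE 0.0899, adjusted p = 2.44e-05). BiP and 2 of its cochaperones were thus higher in A549 and another cochaperone and the exchange factor lower.

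HSP90B1, the HSP90 of the ER, read 1655, 1278, 1003, 1150 and 1261 in A549 and 1152, 1107, 1131, 726 and 1144 in HTB-182. The lines overlapped, and the call was marginal (log2 difference 0.27, SE 0.109, adjusted p = 0.0495, lost under several alternative settings). The lectin chaperones calnexin and calreticulin hold glycoproteins during folding. CANX read 4748, 4278, 3912, 4134 and 4293 in A549 and 5428, 5467, 5379, 5251 and 5411 in HTB-182 and was 1.26-fold lower in A549 without overlap (log2 difference -0.34, SE 0.0473, adjusted p = 7.12e-05). CALR read 857, 769.7, 710.3, 666 and 972 in A549 and 670.1, 667, 737, 729.9 and 678 in HTB-182, with overlapping ranges and no call (log2 difference 0.18, 95% interval -0.05 to 0.40, adjusted p = 0.155). Among the disulfide isomerases PDIA3, which works with the lectins, read 2999, 2479, 2365, 2645 and 2147 in A549 and 3227, 3079, 3384, 3259 and 3253 in HTB-182 and was 1.29-fold lower in A549 (log2 difference -0.37, adjusted p = 0.000822). PDIA4 read 1551, 1388, 1249, 1262 and 1096 in A549 and 874, 831, 909.5, 796 and 846.5 in HTB-182 and was higher on every A549 array (log2 difference 0.60, adjusted p = 5.77e-05). PDIA6 ranged over 3044 to 3705 in A549 and 3204 to 3374 in HTB-182, without a call (95% interval -0.12 to 0.13). The isomerases therefore did not share a direction.

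XBP1, the transcription factor spliced by IRE1, read 640, 673, 630.1, 654 and 704 in A549 and 244.5, 269, 261, 275 and 252 in HTB-182, and its spliced and unspliced forms were not measured separately here. All A549 arrays were above all HTB-182 arrays, and XBP1 was 2.45-fold higher in A549 (log2 difference 1.29, SE 0.0843, adjusted p = 1.2e-07). SEL1L, the adaptor of the SYVN1 ligase, read 872, 966, 801, 781 and 909 in A549 and 332, 346, 369.8, 372 and 331 in HTB-182, again without overlap. It was 2.40-fold higher in A549 (log2 difference 1.27, SE 0.0921, adjusted p = 3.06e-07). EDEM1, which marks misfolded glycoproteins for degradation, read 211, 255, 221, 223 and 241 in A549 and 138, 159.9, 144, 172 and 145 in HTB-182 and was higher in A549 (log2 difference 0.55, adjusted p = 0.000413). HERPUD1, which organises the ligase complex, read 1175, 1203, 851, 1118 and 749 in A549 and 786, 985, 715, 875 and 836 in HTB-182. Its ranges overlapped, and on the vehicle arrays A549 was the lower line, so its call (log2 difference 0.26, adjusted p = 0.0379) rested on the treated arrays and was lost under several alternative settings. SEC61B, a subunit of the translocation channel, read 4466, 4220, 4081, 3978 and 3647 in A549 and 3489, 3423, 3358, 3399 and 3222 in HTB-182 and was higher in A549 by a small margin (log2 difference 0.27, adjusted p = 0.000393).

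The last 3 ER genes are soluble proteins known for strong induction by ER stress, and none was called. SDF2L1, a partner of DNAJB11, read 399, 294, 243, 254.5 and 369.7 in A549 and 321, 317, 320, 289 and 291 in HTB-182 (log2 difference 0.00, 95% interval -0.27 to 0.26). CRELD2 read 702, 605, 451, 542 and 810.1 in A549 and 554, 563, 585, 479 and 538 in HTB-182 (95% interval -0.10 to 0.43). MANF, a secreted protein retained by BiP, ranged over 1010 to 1453 in A549 and 1269 to 1341 in HTB-182 (95% interval -0.26 to 0.11). In all 3 the A549 arrays spread across the narrow range of the HTB-182 arrays, with the estradiol-BSA array lowest. The ER genes with an ER stress response element of either form numbered 10, of which 4 were called higher, 2 lower and 4 not called, with a median log2 difference of 0.17. The 8 measured ER genes with a promoter and without either form had 6 higher, 1 lower and 1 not called, with a median of 0.58. HSPA5 and XBP1 carry the first form and were higher, HYOU1 carries the second and was lower, and CALR and SDF2L1 carry 1 form each and were not called.

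Among ATF4 and its targets 10 genes were called higher, 3 lower and 3 were not called in A549. ATF4 itself ranged over 2054 to 2956 in A549 and 2393 to 2606 in HTB-182 and was not called (log2 difference -0.01, 95% interval -0.18 to 0.15). Its partner CEBPB read 1731, 1653, 1788, 1726 and 1958 in A549 and 221, 216, 201, 245 and 219 in HTB-182. The lines were far apart, with CEBPB 7.56-fold higher in A549 (log2 difference 2.92, SE 0.0832, adjusted p = 1.22e-10). ATF3, a repressor and activator induced by ATF4, read 56.3, 61.65, 50.9, 50.98 and 76.01 in A549 and 40.3, 52.9, 41.99, 51.6 and 53.2 in HTB-182 (log2 difference 0.23, adjusted p = 0.0601). DDIT3 encodes CHOP, which favours cell death under lasting stress. It read 79.35, 78.7, 63.9, 70.8 and 133 in A549 and 48.65, 55.2, 58.4, 63.9 and 58.2 in HTB-182, and the lowest A549 array equalled the highest HTB-182 array. The call (log2 difference 0.44, SE 0.136, adjusted p = 0.0143) took much of its size from the vehicle arrays, where A549 was higher by 1.01 on the log2 scale. NUPR1, a small stress-induced chromatin protein, read 101, 108, 54.8, 53.03 and 120 in A549 and 21.9, 23.7, 27.5, 27.97 and 23.5 in HTB-182. All A549 values were above, at 2 separate levels, and the gene was 2.43-fold higher in A549 (log2 difference 1.28, SE 0.174, adjusted p = 5.34e-05).

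TRIB3, a pseudokinase induced by ATF4 and CHOP, read 335, 386, 341, 364 and 591 in A549 and 115, 100.2, 112, 111 and 91.7 in HTB-182. It was 3.37-fold higher in A549 without overlap (log2 difference 1.75, SE 0.15, adjusted p = 1.18e-06). PPP1R15A encodes GADD34, which brings a phosphatase to eIF2 and so ends the response. It read 39.4, 43.3, 39.8, 37.3 and 46.96 in A549 and 23.8, 27.6, 26.98, 30.5 and 29.9 in HTB-182, higher on every A549 array (log2 difference 0.39, adjusted p = 0.0015). CHAC1, a glutathione-degrading enzyme, read 32.6, 42.2, 29.8, 36.1 and 35.7 in A549 and 23.5, 35.1, 26.75, 31.9 and 32.3 in HTB-182, with no call (adjusted p = 0.0971). DDIT4 and SESN2 both restrain the growth kinase mTORC1. DDIT4 read 2002, 2115, 1901, 2173 and 2191 in A549 and 214, 287.5, 236, 246 and 203 in HTB-182 and had the largest fold among the higher genes, 8.31 (log2 difference 3.05, SE 0.0901, adjusted p = 1.56e-10). SESN2 read 154, 137, 77.05, 75.7 and 80.45 in A549 and 57.1, 59.2, 51.9, 55.65 and 72.98 in HTB-182. Its A549 values were all higher but fell into separate levels for free and coupled estradiol (log2 difference 0.63, SE 0.157, adjusted p = 0.00415). On its second probe set the A549 values were 57.7, 37.1, 44.6, 39.4 and 36.6, without those levels. VLDLR, a lipoprotein receptor, read 205, 226, 197, 201.5 and 165 in A549 and 55.5, 54.9, 43.4, 53.5 and 48.75 in HTB-182 and was 3.19-fold higher in A549 (log2 difference 1.67, adjusted p = 6.41e-08). STC2, a secreted glycoprotein, went the other way. It read 26.3, 32.5, 29.97, 35.1 and 46.5 in A549 and 306, 302, 337, 293 and 277 in HTB-182 and was 6.42-fold lower in A549 (log2 difference -2.68, SE 0.124, adjusted p = 6.31e-09).

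The metabolic targets were divided. PHGDH, the first enzyme of serine synthesis, read 113, 79.35, 83.9, 89.3 and 124 in A549 and 925, 881, 968, 1022 and 913 in HTB-182. The lines lay far apart, and PHGDH was 8.50-fold lower in A549, the largest fall among the 35 genes (log2 difference -3.09, SE 0.112, adjusted p = 8.76e-10). PSAT1, the next enzyme of that pathway, read 2263, 2668, 2545, 2768 and 2113 in A549 and 1611, 1732, 1787, 1726 and 1613 in HTB-182 and was higher in A549 (log2 difference 0.53, SE 0.0614, adjusted p = 1.38e-05). Neighbouring enzymes of the same pathway thus differed between the lines in opposite directions. MTHFD2, a mitochondrial folate enzyme, read 2041, 2486, 2345, 2550 and 2239 in A549 and 4880, 4854, 4557, 4665 and 4503 in HTB-182 and was 2.01-fold lower in A549 (log2 difference -1.01, SE 0.0601, adjusted p = 5.67e-08). ASNS, asparagine synthetase, ranged over 553 to 773 in A549 and 483 to 566 in HTB-182, with overlap and a small call (log2 difference 0.28, adjusted p = 0.034).

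The same 27 genes were called when the A549 vehicle array was left out. Under the other settings 23 to 28 were called, fewest without the estradiol array of either line, when HSP90B1, HERPUD1, DDIT3 and ASNS lost the call. HSP90B1, HERPUD1, ASNS, DDIT3 and SEC61B each lost the call under at least 1 setting, and CALR, CHAC1, ATF3 and CRELD2 each gained it under at least 1. Second probe sets gave a check within the same arrays. Of the 35 genes 21 had more than 1 probe set annotated to them alone, with 34 further probe sets, 26 of them above the filter. The line difference had the sign of the brightest probe set in 24 of the 26, and in 20 of 20 for genes called between the lines. The exceptions were 1 probe set each of CALR (log2 difference -0.33) and PDIA6 (-0.26), both genes without a call. Sizes varied more than signs. TRIB3 differed by 1.75 on its brightest probe set and by 0.41 on the other, STC2 by -2.68 and -0.89, CANX by -0.34 and by -0.54, -0.88 and -1.16, and DNAJB9 by 2.52 and by 1.78 and 1.58.

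**Figure D2:**
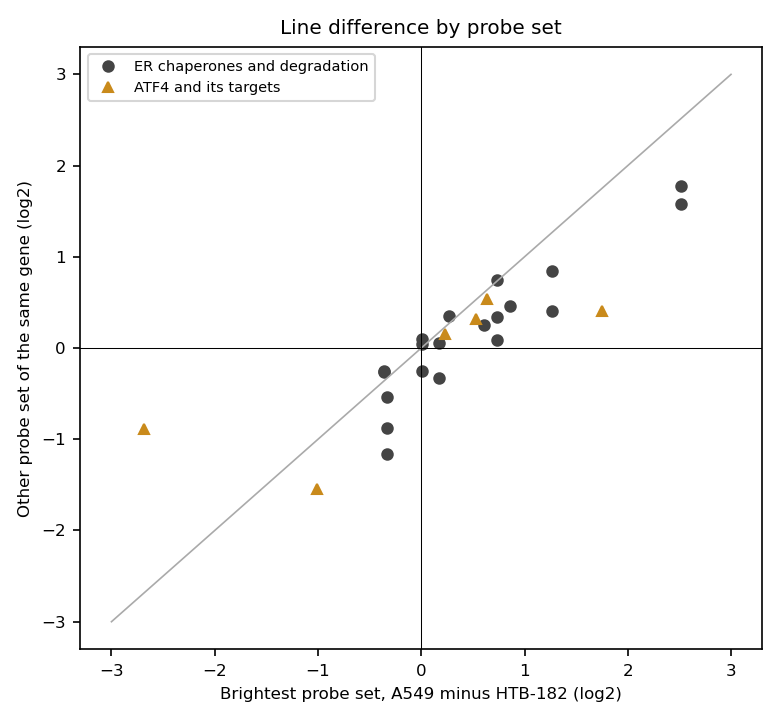
Line difference, as log2(intensity + 16) of A549 minus HTB-182, on the brightest probe set (horizontal axis) and on each of the 26 further probe sets above the filter (vertical axis), with the line of equality. The points of 24 probe sets lie in the quadrants where both signs match, and most lie nearer to 0 than the brightest probe set.

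Other genes of the pathways, from 3 lists drawn up for this work, were called in both directions. So were all genes tested, with 33.6% higher and 32% lower in A549, and such a division by itself says little about the pathways. In the order below, 69.6%, 88.6% and 72.4% of the tested genes on the lists were called, beside 65.7% of all genes. Of 23 sensors, eIF2 kinases and eIF2 or eIF2B subunits and related factors 6 were called higher and 10 lower in A549, with a median log2 difference of -0.15. The sensor genes ERN1 (IRE1), ATF6 and EIF2AK3 (PERK) were all called higher in A549, by 2.23-fold, 1.75-fold and 1.25-fold. Of the other eIF2 kinases EIF2AK4 was 1.85-fold lower in A549, and EIF2AK1 and EIF2AK2 were not called. EIF2B3 and EIF2B5, subunits of the exchange factor whose activity falls when eIF2 is phosphorylated, were 6.58-fold and 3.89-fold lower in A549 (log2 differences -2.72 and -1.96). NFYC, a subunit of the factor that binds the CCAAT part of the ER stress element, was lower (-1.30), and CREB3L2, an ATF6-like factor, was 5.83-fold higher (2.54). Of 40 further genes of ER folding, translocation and degradation 35 were tested, 17 called higher and 14 lower, with ERO1B, KDELR3, EDEM2 and SELENOS highest in A549 (log2 differences 2.49, 2.49, 2.29 and 1.10) and SEC63, SELENOK and SEC61A1 lowest (-0.80, -0.76 and -0.65). Degradation genes on that list were called both ways, with DERL2 (1.04) and OS9 (0.88) higher and UBE2G2 (-0.62), DERL1 (-0.55) and UBE2J1 (-0.33) lower. Of 33 further ATF4 targets 29 were tested, 11 called higher and 10 lower. The stress cytokine GDF15 was 12.1-fold higher in A549, at 642 ± 126 against 38 ± 8.36 in HTB-182 (SD, n = 5 each), and CTH, which makes cysteine, 8.93-fold higher. The arginine transporter SLC7A1 was 3.80-fold lower and the translation repressor EIF4EBP1 3.13-fold lower. None of the genes on these 3 lists was called in any treatment comparison.

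Tamoxifen was examined by setting the estrogen plus tamoxifen arrays against the same estrogen without it, in 4 pairs that share no array. No gene was called over all 12979 (0%), nor any of the 35, and the unadjusted p was under 0.05 for 151 genes, 3 of them among the 35. The 95% interval of the 35 genes reached a median of 0.23 to either side on the log2 scale, or 1.17-fold. In 7 of the 35 (20%) the pairs were all above 0, beside 7.36% of all genes, and in 1 (2.86%) all were below 0, beside 5.13%. DNAJB9 was higher with tamoxifen by 0.23 and 0.25 in A549 (estradiol, then estradiol-BSA) and by 0.38 and 0.36 in HTB-182. The mean log2 difference was 0.31 (95% interval 0.08 to 0.54, unadjusted p = 0.0136, adjusted p = 1 by limma). Its 2 further probe sets were also higher in 4 of 4 pairs (means 0.34 and 0.40). CHAC1 differed by 0.26 and 0.19 in A549 and by 0.37 and 0.16 in HTB-182, with a mean of 0.25 (95% interval 0.05 to 0.44) at intensities of 23.5 to 42.2. HERPUD1 differed by 0.03 and 0.39 in A549 and by 0.32 and 0.29 in HTB-182, with a mean of 0.26 (95% interval 0.01 to 0.50). The intervals of these 3 genes lay above 0 before adjustment over all genes, and no call followed it.

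DDIT4 (mean 0.18), EDEM1 (0.17), ATF3 (0.15) and XBP1 (0.08) made up the rest of the 7, each with an interval that includes 0. A second ATF3 probe set above the filter averaged -0.02 and was above 0 in 2 of 4 pairs. CALR was the gene below 0 in 4 of 4 pairs, by at most 0.15 (mean -0.07, 95% interval -0.32 to 0.19), and its second probe set averaged 0.14 above 0. The median difference was -0.02 over the 19 ER genes, 8 of them above 0, and 0.05 over the 16 ATF4 genes, 14 of them above 0, beside 0.00 over all genes, 50.1% of them above 0. The 29 further ATF4 targets had a median of -0.03, with 12 above 0. The ER median differed between the pairs. It was -0.15 for estradiol and 0.09 for estradiol-BSA in A549, against 0.01 and -0.02 in HTB-182. A term for a different tamoxifen effect in the lines called no gene (0%; 260 genes at an unadjusted p under 0.05, none of the 35), with intervals extending by a median of 1.37-fold each way for the 35.

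**Figure D3:**
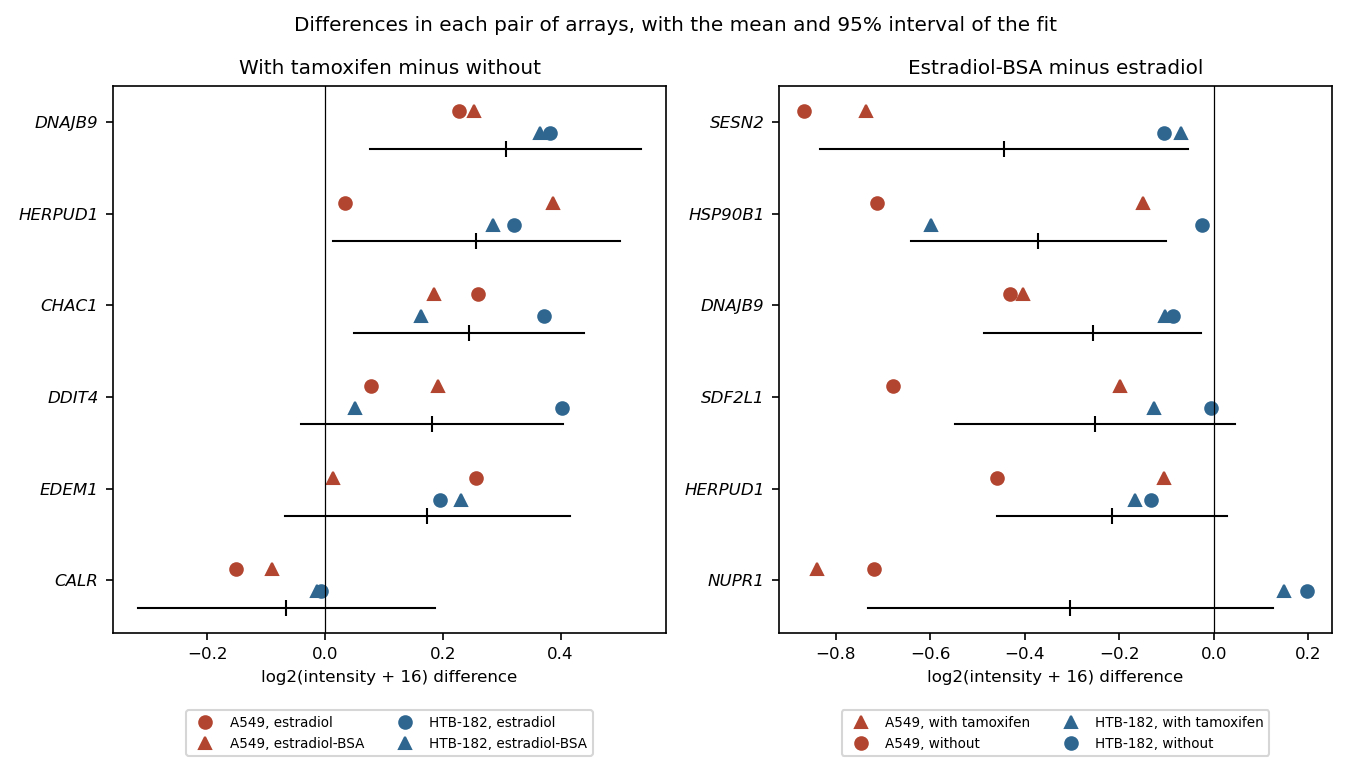
Differences in log2(intensity + 16) within pairs of arrays, with tamoxifen minus without on the left and estradiol-BSA minus estradiol on the right. Coloured points are single pairs (A549 red, HTB-182 blue) and black lines the fitted mean with its 95% interval. On the brightest probe set, DNAJB9 was above 0 in every tamoxifen pair and below 0 in every pair of estradiol-BSA and estradiol. NUPR1 was below 0 in A549 and above 0 in HTB-182 for estradiol-BSA minus estradiol.

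Estradiol-BSA was then set against free estradiol at the same dose and time, the single pair of related compounds in the series, again in 4 pairs of arrays. The compounds differ in the albumin carrier, and albumin alone was not measured here. The test called 1 gene of 12979 (0.0077%) and none of the 35, for which the smallest adjusted p was 0.999 by limma. The unadjusted p was under 0.05 for 377 genes, 3 of them among the 35. In 9 of the 35 (25.7%) all pairs were below 0, beside 4.55% of all genes, and in none were all above, beside 8.94%. SESN2 differed by -0.87 and -0.74 in A549 (without, then with tamoxifen) and by -0.11 and -0.07 in HTB-182. The mean was -0.44 (95% interval -0.83 to -0.06), while its second probe set gave 0.02 and was above 0 in 3 of 4 pairs, so the probe sets disagree. HSP90B1 differed by -0.71 and -0.15 in A549 and by -0.03 and -0.60 in HTB-182, with a mean of -0.37 (95% interval -0.64 to -0.10), and its second probe set was below 0 in 4 of 4 pairs (-0.35). DNAJB9 differed by -0.43 and -0.41 in A549 and by -0.09 and -0.10 in HTB-182, with a mean of -0.26 (95% interval -0.49 to -0.03). Its further probe sets averaged -0.025 and -0.20, and each was above 0 in 1 of 4 pairs. SESN2, HSP90B1 and DNAJB9 were the genes whose interval excluded 0 before adjustment.

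SDF2L1 (mean -0.25), HERPUD1 (-0.22), MANF (-0.17), VLDLR (-0.13), CANX (-0.10) and SEC61B (-0.07) completed the 9, with intervals that include 0. The median difference was -0.10 over the ER genes, 3 of 19 above 0, and -0.02 over the ATF4 genes, 7 of 16 above 0, beside 0.00 over all genes, 48.6% of them above 0. The 35 further ER genes had a median of -0.02, with 11 above 0. The ER median was -0.31 without and -0.10 with tamoxifen in A549, where all genes had -0.10 and -0.03. It was 0.00 and -0.06 in HTB-182, where all genes had 0.07 and 0.05. For BiP the mean HSPA5 difference was -0.03 (95% interval -0.25 to 0.18), with 3 of 4 pairs above 0. Its second probe set averaged -0.14 and was above 0 in 0 of 4 pairs, so the probe sets disagree in sign.

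Whether the 2 estrogen forms differed unequally in the lines was tested with a term added after the values of NUPR1 and SESN2 had been seen. It called 3 of 12979 genes (0.0231%) and none of the 35, 5 of which had an unadjusted p under 0.05 beside 13.2% of all genes. NUPR1 read 54.8 and 53.0 on the estradiol-BSA arrays of A549, without and with tamoxifen, against 101 and 108 on the estradiol arrays. In HTB-182 it read 27.5 and 28.0 with estradiol-BSA against 21.9 and 23.7 with estradiol, near the filter at 19.7. The difference was -0.72 and -0.84 in A549 and 0.20 and 0.15 in HTB-182, which gave -1.0037 between the lines (SE 0.174, unadjusted p = 0.000159, adjusted p = 0.18 by limma). NUPR1 had a single probe set, and its value on the A549 vehicle array, 120, lay with the free estradiol arrays. The others of the 35 genes had an adjusted p of 0.374 or more by limma.

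**Figure D4:**
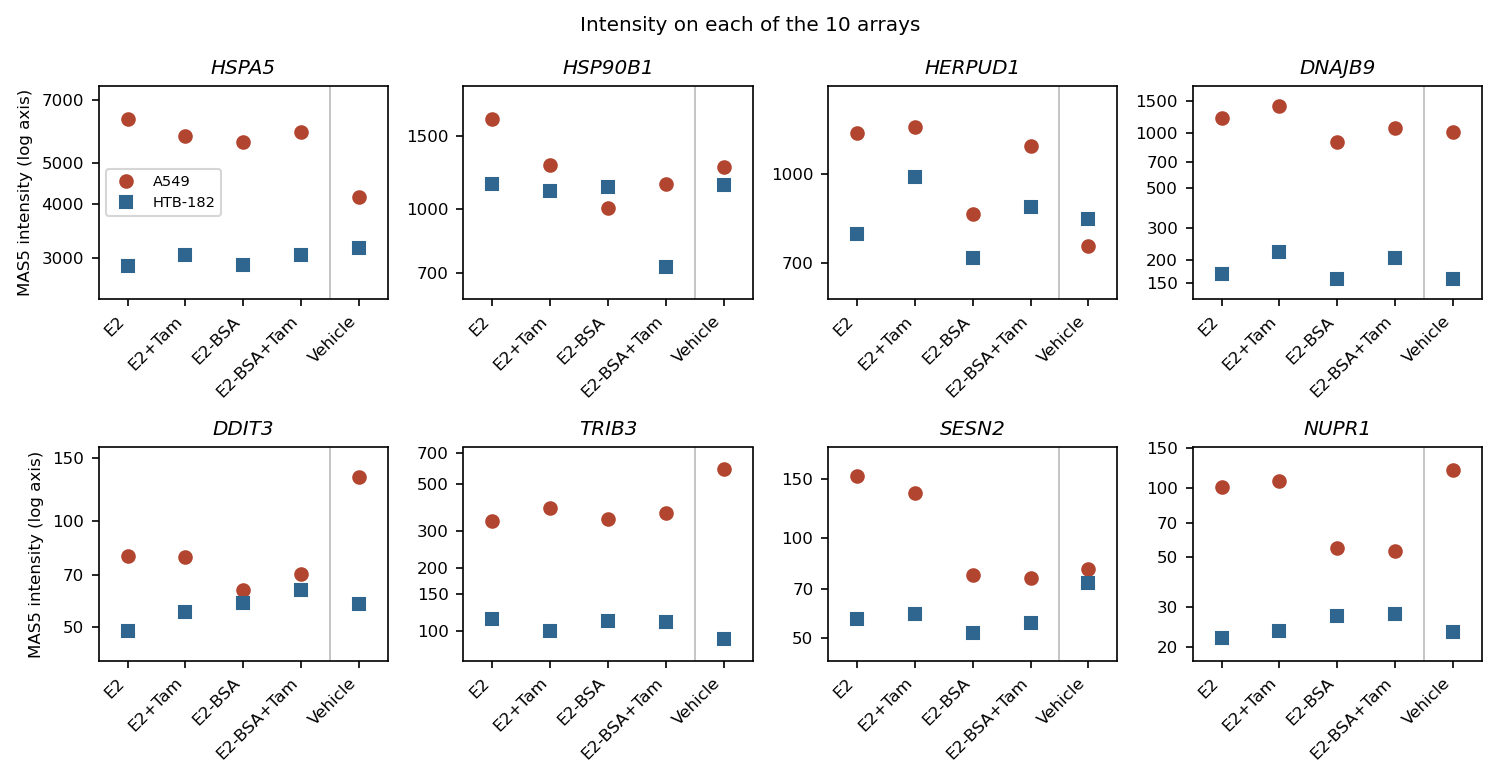
MAS5 intensity on each of the 10 arrays (log axis, separate for each gene) for 8 genes, with A549 as red circles and HTB-182 as blue squares and the treatments along the horizontal axis, vehicle last. Values are those of the brightest probe set. The A549 vehicle array is the lowest A549 value for HSPA5 and the highest for DDIT3 and TRIB3, and SESN2 and NUPR1 in A549 lie higher with free estradiol than with estradiol-BSA.

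Each treatment was also set against vehicle, with 1 pair per line. These 4 comparisons share the vehicle arrays and are not independent. By limma no gene was called for estradiol (0%), estradiol plus tamoxifen (0%), estradiol-BSA (0%) or estradiol-BSA plus tamoxifen (0%). The unadjusted p was under 0.05 for 581, 594, 840 and 962 genes in that order, of which 1, 3, 1 and 2 were among the 35. DNAJB9 was higher in both lines with estradiol plus tamoxifen, by 0.48 in A549 and 0.46 in HTB-182 (mean 0.47, 95% interval 0.14 to 0.79, adjusted p = 0.786). HERPUD1 differed by 0.67 and 0.23 in that comparison (mean 0.45, 95% interval 0.11 to 0.80) and by 0.57 and 0.07 with estradiol-BSA plus tamoxifen (mean 0.32). PSAT1 averaged 0.22 and 0.24 above vehicle in the 2 tamoxifen groups and 0.21 with estradiol-BSA. Its second probe set did not repeat this. It read 152, 174 and 114 on those A549 arrays, against 156 with vehicle. In HTB-182 it read 124, 100 and 116, against 130 with vehicle. VLDLR averaged 0.28 and 0.18 above vehicle with tamoxifen and 0.21 with estradiol. ATF3 was below vehicle in both lines with estradiol (mean -0.32), estradiol-BSA (-0.36) and estradiol-BSA plus tamoxifen (-0.25). A second ATF3 probe set above the filter read 34.3, 22.4 and 24.7 on those A549 arrays, against 39.7 with vehicle. In HTB-182 it read 23.3, 27.9 and 28, against 27.3, so it was not below vehicle there with estradiol-BSA.

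Further genes lay on the same side of vehicle in both lines. With estradiol SEC61B (mean 0.20), PDIA4 (0.27) and HSP90B1 (0.20) were above vehicle, and DDIT3 (-0.42), PPP1R15A (-0.19) and CHAC1 (-0.19) were below it. The second HSP90B1 probe set was below vehicle in A549, at 73.2 against 97.2, and above it in HTB-182, at 62.1 against 55.4. With estradiol plus tamoxifen PHGDH (-0.30), CALR (-0.18) and CEBPB (-0.13) were below, besides DDIT3 (-0.36). The DDIT3 means came mostly from A549, at -0.64 in A549 and -0.20 in HTB-182 with estradiol and at -0.65 and -0.06 with estradiol plus tamoxifen. Without the A549 vehicle array they were -0.0675 and -0.0031, and without the HTB-182 vehicle array -0.78 and -0.71. With estradiol-BSA PDIA4 (0.14), SEC61B (0.11) and PDIA3 (0.10) were above and SESN2 (-0.22), HYOU1 (-0.22) and CHAC1 (-0.18) below. With estradiol-BSA plus tamoxifen DNAJB9 (0.21) was above, and HSP90B1 (-0.39), CRELD2 (-0.36) and SDF2L1 (-0.26) below. The smallest adjusted p of any of the 35 was 0.913, 0.786, 0.665 and 0.653 in the 4 comparisons, and the intervals extended by a median of 1.25-fold each way.

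Within a single line a difference from vehicle has no replicate, and sizes are given without a test. At least 1.5-fold from vehicle in A549 were 8.69% of all genes with estradiol, 12.6% with estradiol plus tamoxifen, 17.9% with estradiol-BSA and 18.3% with estradiol-BSA plus tamoxifen. In HTB-182 these shares were 0.424%, 0.408%, 0.424% and 0.786%. In A549 HERPUD1 and SESN2 were higher, and DDIT3, TRIB3 and NUPR1 lower, by that size on 2 or more treated arrays. HERPUD1 read 1175, 1203 and 1118 with estradiol, estradiol plus tamoxifen and estradiol-BSA plus tamoxifen and 851 with estradiol-BSA, against 749 with vehicle. SESN2 read 154 and 137 with free estradiol and 77.0 and 75.7 with estradiol-BSA, against 80.45. Its second probe set read 57.7 and 37.1 with free estradiol and 44.6 and 39.4 with estradiol-BSA, against 36.6. DDIT3 lay between 63.9 and 79.3 on the treated arrays, against 133 on the vehicle array, and TRIB3 between 335 and 386, against 591. The second TRIB3 probe set showed the same, at 24.5 to 26.9 on treated arrays and 46.4 with vehicle. HSPA5 lay between 5592 and 6297 on the treated arrays, against 4162, but its second probe set read 219 to 289 against 282. In HTB-182 only HSP90B1 passed that size, on the estradiol-BSA plus tamoxifen array, at 726 against 1144 with vehicle. Its second probe set was lowest on that array too, at 32.6 against 55.4.

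Subgroup medians against the A549 vehicle array rest on that single array and carry no test, and those of the ATF4 genes lay near those of all genes. The median of the ER genes was 0.14, 0.08, -0.17 and -0.05 on the log2 scale for the 4 treatments in their order, and that of the ATF4 genes -0.13, -0.08, -0.24 and -0.15, where all genes had -0.11, -0.14, -0.19 and -0.19. The vehicle array was the highest of the A549 arrays for 9 of the 16 ATF4 genes and for 3 of the 19 ER genes, and the highest for 49.6% of all genes. It was the lowest for 2 of the 16 and 5 of the 19, and for 17.2% of all genes. In HTB-182 the 8 medians lay between -0.0045 and 0.0998. Without the A549 vehicle array none of the 35 genes was called against vehicle. With the HTB-182 vehicle array left out, vehicle rests on the A549 array alone. HSPA5 then differed from vehicle by 0.53, 0.50, 0.44 and 0.52 on the log2 scale for the 4 treatments in their order. DDIT3 differed by -0.78, -0.71, -0.80 and -0.69, and TRIB3 by -0.72, -0.71, -0.72 and -0.68. These differences depend on a single vehicle array. The second HSPA5 probe set read 282 on the A549 vehicle array and 219 to 289 on the treated A549 arrays.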

How the data were processed

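The authors deposited a single table of MAS5 intensities on a linear scale, made with MAS5 per the submitters' processing notes. Its version and scaling target are unknown here. Trimmed means of the 10 arrays ran from 106 to 116, and no 2 arrays were identical. Of 54675 probe sets 62 are controls, 41091 are annotated to 1 gene and 1801 to several, and probe sets of several genes or none were not used. By gene number, 41037 of those with 1 gene were found in RefSeq, and 0 symbols needed an update.

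The brightest 1-gene probe set stood for a gene, values were taken as log2(intensity + 16), and genes were kept whose mean reached the median of all probe sets, an intensity of 19.7. Tests used limma 3.58.1 in R 4.3.3 with an intensity trend, cell line and treatment as additive terms and 4 residual degrees of freedom, and Benjamini-Hochberg adjustment at 0.05. The spread is therefore the disagreement between the lines in their response. The line entered as the block that pairs arrays, and models with a line by tamoxifen or line by estrogen form term left 3 residual degrees of freedom. The procedure was tested on simulated data. The number of arrays limits the precision, since each combination is a single array.

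The members and lists were chosen with earlier results of these data known. Values on every array are given for genes of largest difference with 1 direction in all pairs (up to 8 each way between the lines, up to 5 for tamoxifen and estrogen form, up to 4 against vehicle), for genes at least 1.5-fold from vehicle on 2 or more arrays of a line, and for HSPA5, which was added after its values were seen. Alternatives were another pseudocount, no filter, quantile or percentile scaling, the mean over probe sets, no intensity trend and each array left out.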

Additional observations from a re-analysis of the deposited data

Results flagged for a closer look

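In a group of 5 arrays a value was picked out when its gap to the nearest other array was a large enough part of the group's range, a rule by which chance picks about 1 in 20 groups. It picked 3 of the 35 stress genes in A549 (8.57%), beside 8.48% of all genes, and 1 in HTB-182 (2.86%), beside 5.29% of all genes, so these shares are near or below those of all genes.

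All 3 in A549 concern the vehicle array. HSPA5 was lowest there, at 4162, with the nearest array at 5592 and a gap of 0.713 of the range. Its second probe set did not repeat this, at 282 there and 219 to 289 on the treated A549 arrays. DDIT3 was highest there, at 133, with the nearest array at 79.3 and a gap of 0.716 of the range. TRIB3 was highest there, at 591, with the nearest array at 386 and a gap of 0.754 of the range. In HTB-182 HSP90B1 was lowest on the estradiol-BSA plus tamoxifen array, at 726, with the nearest array at 1107 and a gap of 0.913 of the range.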

How the results depend on the processing

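Of the 35 stress genes 16 to 21 were called higher and 7 lower in A549 than in HTB-182 under all settings, and 16 to 20 higher when each array was left out in turn. None of the 35 was called for tamoxifen or for estrogen form under any setting, including the line by form term, which was chosen after seeing the data. Against vehicle, leaving out 1 array in turn gave 0 to 4 of the 35 for estradiol, 0 to 4 for estradiol plus tamoxifen, 0 to 4 for estradiol-BSA and 0 to 5 for estradiol-BSA plus tamoxifen, the highest in each without the HTB-182 vehicle array, when 1078, 1754, 2058 and 2104 of all genes were called. Over all settings the calls among all genes were 0 to 2 for estrogen form, beside 1 in the main model, and 0 to 22 for its line term, beside 3. Named genes that changed sign were never called. With the mean over probe sets CALR with tamoxifen became 0.0283, and PSAT1 and SEC61B with estradiol-BSA against vehicle -0.0342 and -0.027. With 1 array left out, CALR ranged over -0.16 to 0.0297 for tamoxifen and -0.39 to 0.0317 for estradiol plus tamoxifen against vehicle. For estradiol-BSA against vehicle PDIA3 ranged over -0.0465 to 0.24, PDIA4 over -0.0044 to 0.29 and SESN2 over -0.54 to 0.10. The cause was not tested. Each combination is a single array without replicate cultures, MAS5 scaling is unknown, and dim genes such as CHAC1, PPP1R15A and NUPR1 lie near the filter. The arrays are paired by line and treatment in every model, and the labels carry no replicate numbers that could give a further block.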
